A study of Mus musculus with 2 samples.

Results

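Acetylcholine is made by choline acetyltransferase, encoded by Chat, and acts through muscarinic receptors, which are coupled to G proteins, and nicotinic receptors, which are ion channels. The genes described here were Chat, the muscarinic receptor genes Chrm1, Chrm2, Chrm3 and Chrm4, and the nicotinic subunit genes Chrna2, Chrna3, Chrna4, Chrna7 and Chrnb2. These 10 genes were taken as members by name, and no measured value entered the rule. Of the 10, 9 were among the 19575 genes of the count matrix, and Chrna2 is not analysed here. Their levels were followed across inhibitory, excitatory and Chat-positive nuclei of the mouse dorsal spinal cord in both libraries of the study.

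Single-nucleus RNA libraries (10x, 3' version) were made from nuclei of the dorsal cord at lumbar segments L3 to L5 of adult Pdyn-IRES-Cre(+/-);R26-LSL-Sun1.eGFP(+/-) mice. In these mice, Cre made under the prodynorphin gene marks the nuclear envelope with GFP in cells that have expressed Pdyn at any time, and GFP-positive nuclei were sorted in both groups. The naive library came from a pool of 8 mice of either sex that received isoflurane anaesthesia at postnatal day 3, and the injured library from a pool of 8 mice that had an incision of the left plantar hindpaw at postnatal day 3. Each group was therefore 1 pooled library, so no difference between groups could be tested. Intervals are exact 95% intervals that cover counting error only, and they do not cover the spread between mice.

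The naive library held 4063 nuclei with a median of 6955 UMIs (unique molecular identifiers, 1 per captured RNA molecule), and the injured library held 3547 nuclei with a median of 8464. The summed depth was 30602222 and 32934588 UMIs, and 3 cell barcodes were shared. Xist and Y-linked UMIs occurred together in 395 of the 7610 nuclei. Nuclei were clustered without the cholinergic genes and named from marker genes. Inhibitory-like nuclei numbered 2360 naive and 1917 injured, excitatory-like nuclei 690 and 560, and cerebrospinal fluid-contacting (CSF-contacting) neuron-like nuclei 106 and 48. Clusters that failed the naming rule held 803 (19.8%) and 927 nuclei (26.1%). Of these, cluster 2 (303 naive and 321 injured nuclei) held 436 UMIs of inhibitory transmitter genes per 1000000 UMIs and 3.11 of the excitatory gene Slc17a6. Cluster 7 (199 and 204 nuclei) held 29.1 and 170. Neither cluster enters the main inhibitory-like or excitatory-like values. The glutamate transporter gene Slc17a6 stood at 241 and 231 UMIs per 1000000 UMIs (naive and injured) in excitatory-like and at 4.51 and 3.36 in inhibitory-like nuclei, and Gad1, which makes GABA, at 7.28 and 7.57 against 137 and 116.

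As background, muscarinic receptors M1 and M3 act through Gq proteins and phospholipase C and can close M-current potassium channels, whereas M2 and M4 act through Gi proteins and can open GIRK potassium channels. Neuronal nicotinic receptors are pentamers, and alpha4 with beta2, alpha3 with beta4, and alpha7 alone are well known combinations. In the dorsal horn, acetylcholine comes mainly from sparse local interneurons and dampens pain transmission, while the large cholinergic cells of the cord are motor neurons and the partition cells near the central canal.

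The start of Chrm2 is shown because Chrm2 had the largest spread in level between classes of nuclei and because a second transcript began beside it. Chrm2 lies at chr6:36388084-36528414 on the plus strand of mm10 (GENCODE annotation). The 250 bases before its RefSeq start, at chr6:36387834-36388083 of GRCm38.p6, are printed 5′ to 3′ with a GC box in capitals.
Chrm2 promoter: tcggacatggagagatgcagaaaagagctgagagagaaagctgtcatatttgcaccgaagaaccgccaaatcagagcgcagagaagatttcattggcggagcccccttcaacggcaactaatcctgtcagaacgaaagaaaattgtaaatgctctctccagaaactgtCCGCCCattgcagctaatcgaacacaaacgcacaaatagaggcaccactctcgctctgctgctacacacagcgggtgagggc
The capitals are GGGCGG read on the other strand, and 32.7% of 32851 RefSeq promoter windows held this GC box on either strand. The GATA motif, searched as AGATAA or TGATAA on both strands because GATA factors mark CSF-contacting neurons, was absent from this window and present in 16.6% of all windows. These matches describe letters only.

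Levels are given as UMIs per 1000000 UMIs of the class, abbreviated CPM, with the naive value before the injured value. A 3' UMI level also moves with how many priming sites and introns a gene has, so each gene is ranked across classes and never against another gene. Of the 9 genes, 5 (Chrm2, Chrm3, Chrna4, Chrna7 and Chrnb2) reached the 100 UMIs needed for a ratio in both main classes. Chat, Chrm1, Chrm4 and Chrna3 did not.

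**Figure D1:**
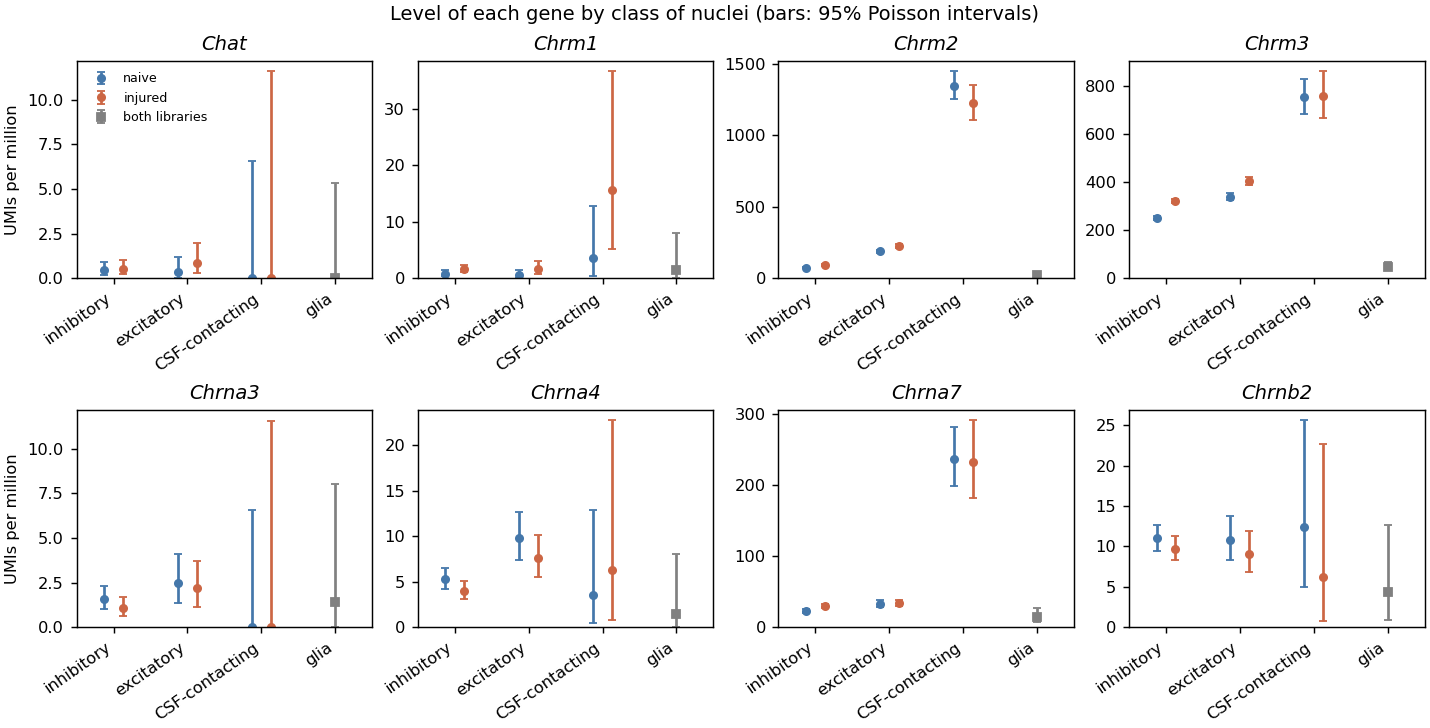
Level of 8 genes in CPM (vertical axis, from 0, scaled to each gene) in inhibitory-like, excitatory-like and CSF-contacting neuron-like nuclei of the naive (blue) and injured (orange) library and in glia-like nuclei of both libraries (grey); bars are 95% Poisson intervals. Chrm2, Chrm3 and Chrna7 are highest in CSF-contacting neuron-like nuclei in both libraries, with 1347 and 1225, 754 and 760, and 238 and 232 CPM.

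Chat encodes the enzyme that makes acetylcholine and lies at chr14:32408203-32465989 on the minus strand. At least 1 Chat UMI was found in 20 of 4063 naive nuclei (0.492%, 95% Clopper-Pearson interval 0.301 to 0.759) and in 28 of 3547 injured nuclei (0.789%, 0.525 to 1.14). In inhibitory-like nuclei the share was 0.339% naive (8 nuclei, 0.146 to 0.667) and 0.469% injured (9 nuclei, 0.215 to 0.889). In excitatory-like nuclei it was 0.290% (2 nuclei, 0.0351 to 1.04) and 0.893% (5 nuclei, 0.291 to 2.07). The intervals overlap in both classes, and the 2 naive excitatory-like nuclei lie below the limit of 3 counts. None of the 106 naive and 48 injured CSF-contacting neuron-like nuclei had a Chat UMI. By the limit of 3 counts, this allows up to 2.83% and 6.25% of nuclei with a UMI, and it sets no limit on nuclei that express the gene below detection. None of the 199 glia-like nuclei had one either, at a lower median depth of 2447 UMIs. With each nucleus thinned to 2000 UMIs, the shares over all nuclei came to 0.100% naive (0.0272 to 0.256) and 0.114% injured (0.0310 to 0.291). Each rests on 4 nuclei. Thinned to 4000 UMIs the shares came to 0.314% and 0.411%, from 12 and 14 nuclei. The shares stood closer together at equal depth, but at counts too small to fix the size of the gap. The level of Chat over all nuclei, scaled to total UMIs, was 0.719 CPM naive (22 UMIs) and 1.82 injured (60 UMIs). The gene for the vesicular acetylcholine transporter, Slc18a3, lies inside Chat on the same strand and is not analysed here. Whether strand or introns were used in the counting is not given in the sources used here.

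Chat-positive nuclei were split by their number of Chat UMIs, with the cut set at 2. Of the 48 Chat-positive nuclei, 38 had exactly 1 UMI, and 10 had 2 or more, with 2 naive nuclei holding 4 UMIs and 8 injured nuclei holding 40. The highest single nucleus had 12. All 10 lay in 1 subdivision of cluster 1, with 72 naive and 103 injured nuclei, which was led by Samd5, Rnf207 and Onecut2 and failed the naming rule. Chat was found in 6.94% (2.29 to 15.5) of its naive nuclei and in 8.74% (4.07 to 15.9) of its injured nuclei, shares that overlapped. Of the 38 nuclei with 1 UMI, 4 lay in this subdivision too, as did 161 of the 7562 nuclei without Chat. Without this subdivision the shares of Chat-positive nuclei were 0.376% naive and 0.552% injured.

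The 10 nuclei with 2 or more Chat UMIs carried some other genes of cholinergic cells, but not all that were read. Slc5a7, the high-affinity choline transporter that feeds acetylcholine synthesis, had 59 UMIs in 8 of the 10, or 367 CPM (279 to 473), against 0.841 CPM (0.630 to 1.10) in the 7562 nuclei without Chat. Prph, a neurofilament protein of motor and autonomic neurons, had 19 UMIs in 6 of the 10 (118 CPM against 0.778). Isl1, a transcription factor of motor neurons among others, had 6 UMIs in 3 of the 10 (37.3 CPM against 0.0953). Ache, which breaks acetylcholine down, did not stand apart in the same way, with 5 UMIs in 4 of the 10 (31.1 CPM, 10.1 to 72.5) against 31.8 CPM. Chodl, read beside these genes, did not stand apart upward either, with no UMI in the 10. Its interval of 0 to 22.9 CPM includes the 12.95 CPM of nuclei without Chat, so no difference can be read. Gad1, Slc32a1, Slc6a5, Pax2, Lbx1 and Pdyn had no UMI in the 10, and Gad2 had 2. Their median depth was 15723 UMIs, above the 7574.5 of nuclei without Chat, and its part in these counts was not tested. The set was chosen on Chat UMIs alone, and its other genes were not used to choose it.

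The 10 nuclei were not uniform. The nuclei with 12, 8, 6 and 4 Chat UMIs had 3, 6, 17 and 21 Slc5a7 UMIs and no Slc17a6 UMI. The only nuclei with Slc17a6, the glutamate transporter, had 3, 2 and 2 Chat UMIs, with 3, 3 and 6 Slc17a6 UMIs. Their Slc5a7 counts were 0, 1 and 0, and the 2 without Slc5a7 had no Prph, Isl1 or Ache UMI either. Among the receptors, Chrm2 had 44 UMIs in 6 of the 10 (273 CPM) and Chrm3 had 42 in 6 (261 CPM). Of the Chrm3 UMIs, 23 came from 1 injured nucleus and 11 from 1 naive nucleus. Chrna7 had 3 UMIs, Chrna4 and Chrnb2 1 each.

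**Figure D2:**
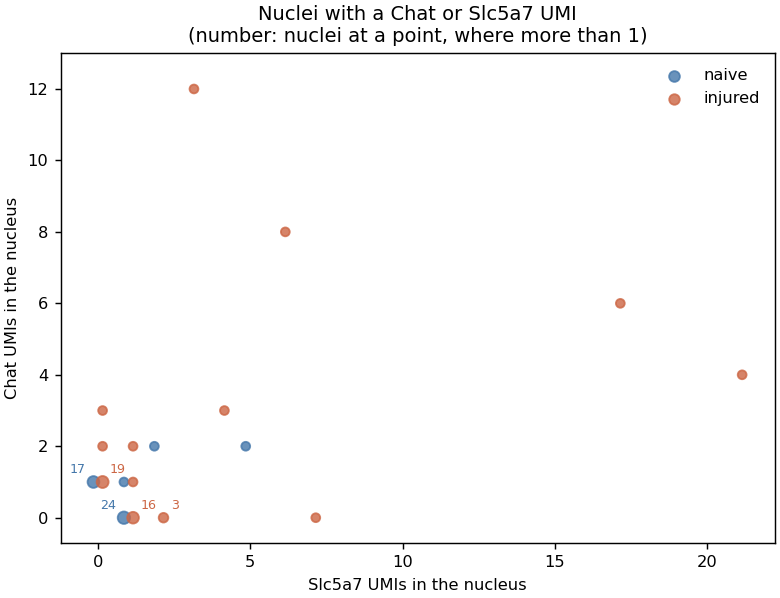
Chat UMIs (vertical axis) against Slc5a7 UMIs (horizontal axis) in each nucleus with a UMI of either gene, naive in blue and injured in orange, with a number where several nuclei share a point. Nuclei with 4 or more Chat UMIs all have Slc5a7 UMIs and all come from the injured library, while most nuclei with 1 Chat UMI have no Slc5a7 UMI.

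The 38 nuclei with exactly 1 Chat UMI lacked most of these cholinergic genes. Of these, 17 were inhibitory-like, 7 excitatory-like and 14 unnamed. Of the 7562 nuclei without Chat, 4260 were inhibitory-like, 1243 excitatory-like and 1706 unnamed. The 38 nuclei had 2 Slc5a7 UMIs in all and none of Prph or Isl1. Pax2 and Slc6a5, which mark inhibitory and glycinergic neurons, had 37 UMIs in 15 of the 38 and 32 in 13. Pax2 stood at 95.4 CPM (67.2 to 131) against 130.4 in nuclei without Chat, and Slc6a5 at 82.5 against 82.4. The GABA-synthesis genes were lower than in nuclei without Chat, with Gad1 at 36.1 CPM (19.7 to 60.5) against 84.8 and Gad2 at 67.0 (43.8 to 98.2) against 113. These comparisons were not matched by class, and the part of the class makeup was not tested. Prodynorphin itself, the gene that drove the label, had 10 UMIs in 8 of the 38. Conversely, Slc5a7 was found without Chat in 24 naive and 20 injured nuclei.

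Receptor levels in Chat-positive nuclei were compared with those of other nuclei, first over all classes. Chrm2 stood at 143 CPM in the 20 naive Chat-positive nuclei and at 137 in other naive nuclei, a ratio of 1.04 (0.673 to 1.54). In the 28 injured Chat-positive nuclei it stood at 200.5 CPM against 153, a ratio of 1.31 (1.03 to 1.64). Chrm3 gave ratios of 1.12 (0.851 to 1.44) naive and 0.832 (0.686 to 1.0) injured, and Chrna7 of 1.12 and 0.564. None of these 3 genes was past 1.5-fold in both libraries. Class by class the point ratios differed in direction, and several of their intervals include 1. Within inhibitory-like nuclei, Chrm2 was 4.11 times (2.53 to 6.31) as high in the 8 naive Chat-positive nuclei and 2.55 times (1.55 to 3.95) in the 9 injured ones as in the rest of the class, while Chrm3 stood at 0.621 (0.310 to 1.11) and 0.216 (0.0794 to 0.471). Those nuclei had 1 Chat UMI each, and their median depths were 8540.5 and 8295 UMIs against 6808 and 8082. In the 2 naive excitatory-like Chat-positive nuclei Chrm2 had no UMI (ratio interval 0 to 1.28), and in the 5 injured ones it stood at 0.540 (0.217 to 1.12). Chrm3 stood there at 1.15 (0.422 to 2.51) and 2.15 (1.58 to 2.85). In unnamed Chat-positive nuclei the ratio was 0.279 (0.0760 to 0.717) and 1.11 (0.818 to 1.48) for Chrm2 and 1.21 (0.871 to 1.63) and 0.605 (0.460 to 0.782) for Chrm3. Each of these rests on 2 to 14 nuclei, and the intervals do not cover the spread between nuclei. The ratios over all classes pool these sets, and differences between the sets were not tested.

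Chrm2 encodes the M2 receptor, a Gi-coupled receptor that acts as an autoreceptor and heteroreceptor in the cord. In inhibitory-like nuclei it stood at 73.2 CPM naive (69.2 to 77.4) and 91.7 injured (87.2 to 96.4). Excitatory-like nuclei held 187 (176 to 198) and 227 (215 to 239). CSF-contacting neuron-like nuclei held 1347 (1253 to 1447) and 1225 (1106 to 1353), and glia-like nuclei of both libraries 23.1. The order of the classes was the same in both libraries, and none of the neighbouring intervals met within a library. Chrm2 was 2.56 times (2.36 to 2.77) as high in excitatory-like as in inhibitory-like nuclei in the naive library and 2.47 times (2.30 to 2.66) in the injured library. It was past 1.5-fold in both, as was Chrna4, so 2 of the 5 genes were higher in excitatory-like nuclei. Of the 13366 genes compared, 13.4% were past 1.5-fold in both libraries, 7.35% higher and 6.03% lower.

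The share of nuclei with Chrm2 UMIs differed between the classes in the same order. A UMI was found in 16.9% of naive and 21.2% of injured inhibitory-like nuclei, in 59.0% and 68.9% of excitatory-like nuclei, and in 95.3% and 100% of CSF-contacting neuron-like nuclei. At 2000 UMIs per nucleus the shares were 8.64% and 9.22%, 27.0% and 30.1%, and 81.6% and 89.6%. Within inhibitory-like nuclei the transcript was concentrated: the 10% of nuclei with most Chrm2 UMIs held 87.0% of them in the naive library and 81.0% after injury. In excitatory-like nuclei the corresponding 10% held 41.2% and 37.6%.

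This concentration followed the clusters, which had been formed without Chrm2. Cluster 13, inhibitory-like and led by Pax5, Rxfp2 and Drd3, stood at 372 and 389 CPM. Clusters 20 and 16, both excitatory-like, stood at 338 and 356 and at 286 and 335. By contrast cluster 0, inhibitory-like and the most numerous with 453 and 311 nuclei, held only 7 and 3 Chrm2 UMIs (2.39 and 1.24 CPM). Cluster 4, inhibitory-like and led by Igf1, Col24a1 and Tacr3, stood at 3.49 and 6.93. Across the 26 clusters with at least 20 nuclei in each library, log2 levels of Chrm2 in the naive and injured library had a Pearson r of 0.929. Clusters of 1 library share its depth and handling, so this is a description.

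A long noncoding transcript beside Chrm2 had a like pattern. 9330158H04Rik is annotated on the minus strand at chr6:36209620-36390191, so the 2 genes overlap head to head from 36388084 to 36390191. Its 9 annotated transcripts start between 36274356 and 36390191, so not all of them reach Chrm2. It stood at 9.90 and 13.9 CPM in inhibitory-like, 15.6 and 17.0 in excitatory-like, and 154 (124 to 190) and 163 (122 to 214) in CSF-contacting neuron-like nuclei. Its r with Chrm2 across the 26 clusters was 0.855, rank 7 among 14264 genes, and 0.824 without the CSF-contacting cluster. It was 50.02 and 46.7 CPM in cluster 13 and 62.7 and 80.6 in cluster 20, and it had 3 and 2 UMIs in cluster 0. This transcript was chosen after its values were seen, and it was among the genes that could shape the clusters. Within the stretch that the 2 genes share, their reads cannot be told apart unless the counting used strand, which the sources used here do not give.

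Chrm3 encodes the M3 receptor, coupled to Gq, and lies at chr13:9875486-10360847 on the minus strand. Its level was 250.2 CPM (243 to 258) and 320.3 (312 to 329) in inhibitory-like, 339 (325 to 354) and 406 (390 to 422) in excitatory-like, and 754 (684 to 830) and 760 (667 to 862) in CSF-contacting neuron-like nuclei. Of the 33 Chrm3 UMIs of glia-like nuclei (47.7 CPM), 29 were in injured astrocyte-like nuclei (113 CPM, with 11 in 1 nucleus), against 12.1 CPM in naive astrocyte-like and 8.24 in oligodendrocyte-like nuclei. The neuronal classes stood in the same order as for Chrm2 but closer together, with an excitatory over inhibitory ratio of 1.36 (1.29 to 1.43) naive and 1.27 (1.21 to 1.33) injured. A Chrm3 UMI was found in 57.2% and 63.8% of inhibitory-like, 63.3% and 73.8% of excitatory-like, and 84.0% and 89.6% of CSF-contacting neuron-like nuclei. At 2000 UMIs per nucleus the shares were 33.8% and 35.8%, 35.9% and 44.2%, and 73.8% and 60.4%.

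Among inhibitory-like clusters Chrm3 was spread otherwise than Chrm2. Cluster 0, nearly without Chrm2, held 430 and 554 CPM of Chrm3, and cluster 3, led by Mlxipl, Pde11a and Grin2c, held 466 and 516. Cluster 13, high in Chrm2, held 149 and 202. Clusters 5 and 14 were low in Chrm3, with 24.2 and 35.4 and with 44.0 and 61.7. Cluster 5 was led by Col12a1, Sema3c and Nos1, the last of which makes nitric oxide. Across the 26 clusters the naive and injured levels of Chrm3 had an r of 0.925.

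One small inhibitory-like cluster stood out for Chrm3. Cluster 25, led by Cartpt, Alk and Galnt3, had 21 naive and 41 injured nuclei. Chrm3 stood there at 537 CPM (419 to 677) naive and 1242 (1121 to 1373) injured, and the median nucleus had 3 and 7 Chrm3 UMIs at median depths of 6276 and 7635 UMIs. Chrm2 had 0 and 2 UMIs in the same nuclei. The cluster was made up mainly of nuclei with Y-linked and without Xist UMIs, 17 of 21 and 36 of 41. Of its nuclei with UMIs of either Xist or Y-linked genes but not both, 85.0% and 94.7% were Y-linked-only, where the other 25 clusters ranged from 4.95% to 36.6% naive and from 22.6% to 50% injured. In those Y-linked-only nuclei Chrm3 stood at 583 CPM (448 to 745) and 1289 (1159 to 1430). These nuclei make up most of the cluster, so this is no separate check of the gap between the libraries. The number of male mice behind these nuclei is unknown, so mice and groups cannot be told apart here.

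Chrm1, whose M1 receptor couples to Gq, lies at chr19:8663789-8683587 on the plus strand and was near the floor of detection. It had 14 and 27 UMIs in inhibitory-like nuclei (0.820 and 1.62 CPM), 3 and 10 in excitatory-like nuclei (0.497 and 1.68 CPM), and 2 and 5 in CSF-contacting neuron-like nuclei (3.55 CPM, 0.430 to 12.8, and 15.7, 5.10 to 36.6). In the injured library the interval of the CSF-contacting neuron-like nuclei lies above that of the inhibitory-like nuclei. The inhibitory-like ratio of injured over naive was 1.97 with an interval of 1.0 to 4.07, so the counts do not fix its size. Chrm4, whose M4 receptor couples to Gi, lies at chr2:91927249-91928688 on the plus strand and had 5 UMIs in all naive and 0 in all injured nuclei. No pattern of Chrm4 across classes could be read at this depth.

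Chrna7 encodes the alpha7 subunit, which forms calcium-permeable receptors by itself, and lies at chr7:63098692-63212569 on the minus strand. Its level was 23.0 CPM naive (20.7 to 25.4) and 30.1 injured (27.5 to 32.9) in inhibitory-like nuclei and 32.9 (28.5 to 37.9) and 34.2 (29.6 to 39.2) in excitatory-like nuclei. CSF-contacting neuron-like nuclei stood apart with 238 (199 to 282) and 232 (183 to 292), and glia-like nuclei held 14.5. The excitatory over inhibitory ratio of Chrna7 was 1.43 (1.20 to 1.71) in the naive library and 1.13 (0.959 to 1.34) after injury, the latter with an interval that includes 1. A UMI was found in 13.3% and 17.8% of inhibitory-like, 19.1% and 22.9% of excitatory-like, and 55.7% and 77.1% of CSF-contacting neuron-like nuclei. At 2000 UMIs per nucleus these shares were 4.13% and 4.61%, 6.23% and 5.90%, and 36.9% and 39.6%, so at equal depth the libraries stood closer together in each class. Among clusters other than the CSF-contacting one, Chrna7 was highest in cluster 16, with 76.9 and 102 CPM, and in cluster 13, with 58.4 and 92.5. Clusters 12 and 8, both inhibitory-like, were low, with 3.14 and 10.5 and with 9.15 and 7.29.

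Chrna4 and Chrnb2 encode the alpha4 and beta2 subunits, which assemble into the high-affinity nicotine receptor, and lie at chr2:181018380-181043546 and chr3:89746195-89764632, both on the minus strand. Chrna4 stood at 5.27 CPM naive (4.24 to 6.48) and 3.96 injured (3.06 to 5.04) in inhibitory-like nuclei and at 9.77 (7.44 to 12.6) and 7.57 (5.53 to 10.1) in excitatory-like nuclei, ratios of 1.85 (1.31 to 2.60) and 1.91 (1.28 to 2.84). Chrnb2 did not share this difference, with 11.01 and 9.72 CPM in inhibitory-like and 10.8 and 9.09 in excitatory-like nuclei, ratios of 0.977 (0.725 to 1.30) and 0.936 (0.674 to 1.28). The ratio of the ratios was not tested. Glia-like nuclei held 4.34 CPM of Chrnb2 and 1.45 of Chrna4.

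By cluster, Chrna4 reached 17.2 and 11.6 CPM in cluster 16 and 12.4 and 11.8 in cluster 11, which was led by Aldh1a2, Ttn and Col23a1. In cluster 13, which held 16.7 and 10.6 CPM of Chrnb2 and the high Chrna7 and Chrm2 levels given above, Chrna4 was 0 and 0.880. The naive and injured levels across clusters had an r of 0.740 for Chrna4 and 0.878 for Chrnb2, the latter 0.509 over the 19 clusters of a coarser clustering. At 2000 UMIs per nucleus, none of the 58 naive and 33 injured nuclei with Chrna4 also had Chrnb2, against 2.28% and 1.61% of nuclei without Chrna4. The intervals reach 6.16% and 10.6%, so co-expression in single nuclei was not detectable at this depth.

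Chrna3 encodes the alpha3 subunit, known from autonomic ganglia and primary afferents, and lies at chr9:55010111-55026562 on the minus strand. It had 27 and 18 UMIs in inhibitory-like nuclei (1.58 and 1.08 CPM), 15 and 13 in excitatory-like nuclei (2.48 and 2.19 CPM), and none in CSF-contacting neuron-like nuclei. The UMIs gathered in 2 clusters, one in each class, and no other of the 26 had more than 3 in a library. Cluster 14, inhibitory-like and led by Atp10a, Rasgrp4 and Acss1, held 20 and 9 UMIs (18.7 CPM, 11.4 to 28.9, and 9.74, 4.45 to 18.5). Cluster 19, excitatory-like and led by Esr1, Th and Myo5b, held 9 and 10 UMIs (15.8 and 14.2 CPM). Both libraries showed both clusters, at small counts.

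**Figure D3:**
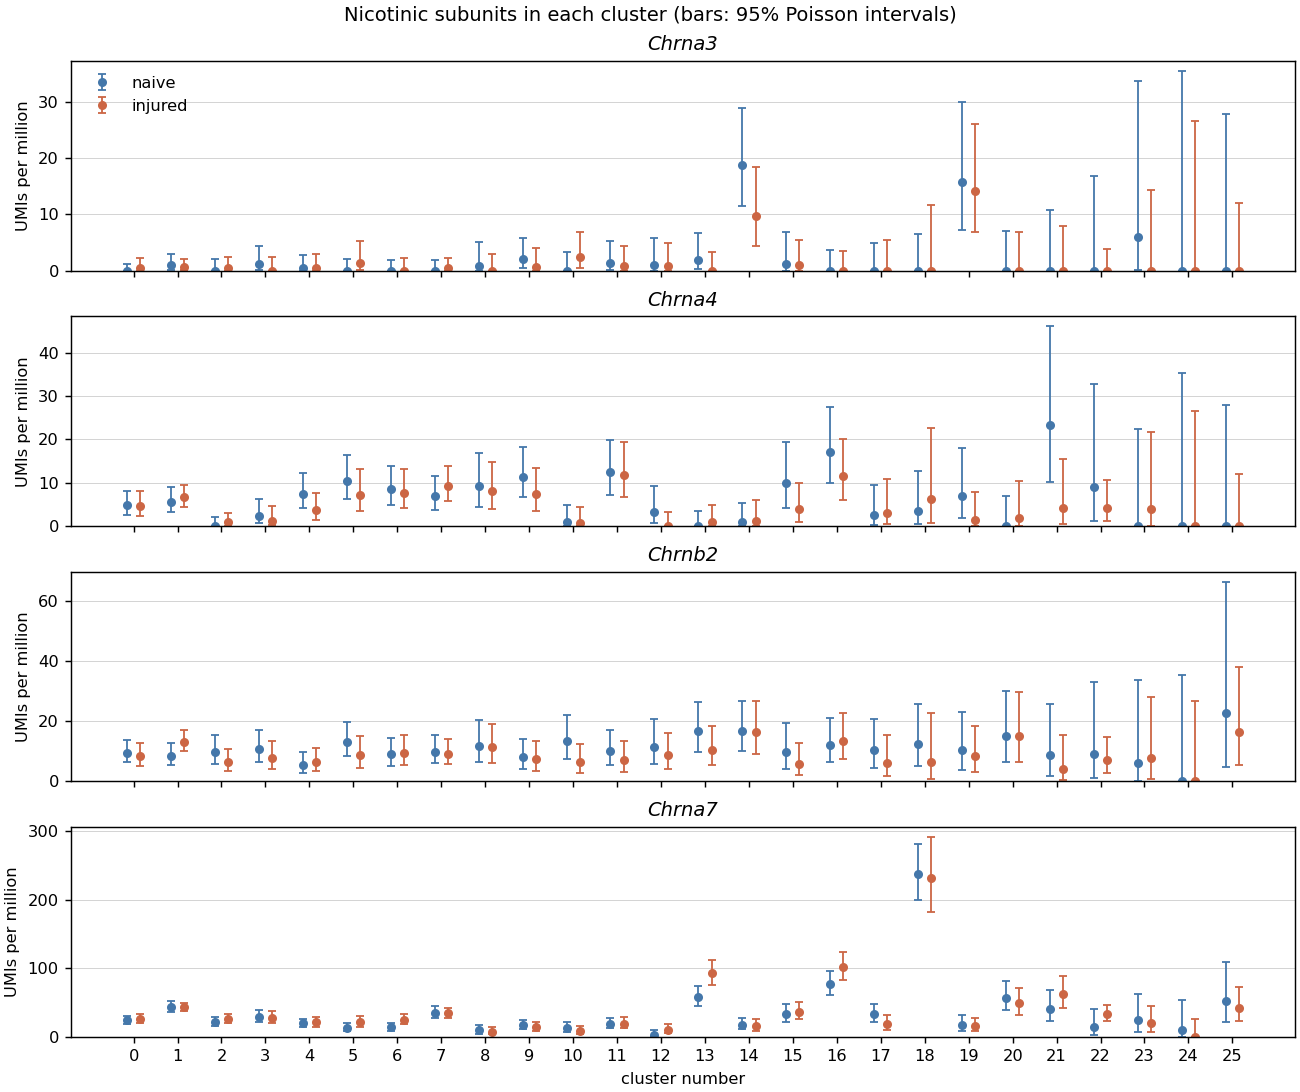
Levels of the nicotinic subunit genes Chrna3, Chrna4, Chrnb2 and Chrna7 in CPM (vertical axes, from 0) in each of 26 clusters (horizontal axis, cluster number), naive in blue and injured in orange, with 95% Poisson intervals. Chrna3 is raised in clusters 14 and 19 in both libraries, Chrna7 in cluster 18 (CSF-contacting neuron-like), and Chrnb2 is similar across well-filled clusters.

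CSF-contacting neurons are GABAergic cells lining the central canal that sense the fluid through the channel Pkd2l1. In the cluster led by Pkd1l2, Pkd2l1 and Slc26a4, 3 members were far above inhibitory- and excitatory-like nuclei together. Chrm2 was 13.1 times (12.04 to 14.2) as high naive and 9.63 times (8.64 to 10.7) injured, Chrna7 9.30 times (7.65 to 11.2) and 7.46 times (5.79 to 9.48), and Chrm3 2.76 times (2.49 to 3.04) and 2.22 times (1.94 to 2.52). Median depth in these nuclei was below that of inhibitory-like nuclei, at 4820.5 and 5866.5 UMIs. The makeup by sex genes differed between the libraries, with 96 Xist-only and 5 Y-linked-only nuclei naive and 29 and 16 injured. In Xist-only nuclei alone the ratios were 12.3 and 12.6 for Chrm2, 9.33 and 7.46 for Chrna7, and 2.94 and 2.31 for Chrm3. In Y-linked-only nuclei they were 18.7 (13.2 to 25.96) and 7.84 (6.36 to 9.59) for Chrm2, 16.1 and 9.42 for Chrna7, and 2.94 and 1.84 for Chrm3. All 3 genes were above the other neurons in each of these sets, and the naive Xist-only set is most of the naive cluster.

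Signalling partners in the CSF-contacting neuron-like nuclei went both ways. Kcnq3, an M-current channel gene, stood at 2590 and 2733 CPM against 697 and 773 in inhibitory-like nuclei, and the Gq effector Plcb4 at 1205 and 1216 against 353 and 380. Kcnq5, another M-current channel gene, was at 56.8 and 15.7 against 461 and 556. Kcnj3, a GIRK channel subunit gene, was at 72.8 and 87.9 against 777 and 838. Chrna5, an accessory nicotinic subunit gene, had 6 and 2 UMIs there against 3 and 2 in all inhibitory-like nuclei.

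Injured and naive libraries were then compared within each class. In inhibitory-like nuclei Chrm2, Chrm3 and Chrna7 were higher in the injured library, by 1.252-fold (1.16 to 1.35), 1.28-fold (1.23 to 1.33) and 1.31-fold (1.15 to 1.5). These correspond to log2 ratios of 0.32, 0.36 and 0.39 where the median gene stood at -0.08, and they lie at the 98.0, 98.5 and 98.8 percentile of the genes tested. Chrna4 stood at 0.751 (0.538 to 1.04) and Chrnb2 at 0.882 (0.711 to 1.09), both with intervals that include 1. None of the 5 genes was past 1.5-fold in either direction, against 2.47% of the 12604 genes tested. Of the genes past it, 33 were higher and 278 lower, and 69 and 154 with median-of-ratios size factors.

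In excitatory-like nuclei Chrm2 was 1.21-fold (1.12 to 1.31) and Chrm3 1.20-fold (1.13 to 1.27) as high in the injured as in the naive library. Chrna7 stood at 1.04 (0.849 to 1.27), Chrna4 at 0.775 (0.514 to 1.16) and Chrnb2 at 0.845 (0.578 to 1.23). Again none of 5 was past 1.5-fold, against 2.81% of 10132 genes, with 20 higher and 265 lower, and 38 and 141 with size factors. In CSF-contacting neuron-like nuclei the ratios were 0.909 (0.803 to 1.03) for Chrm2, 1.01 (0.857 to 1.18) for Chrm3 and 0.977 (0.726 to 1.31) for Chrna7, none of 3 past 1.5-fold against 5.53% of 1573 genes. The Chrm2 value pools 2 sets whose ratios pointed opposite ways. In Xist-only nuclei of this class Chrm2 went from 1369 to 1636 CPM, a ratio of 1.19 (1.03 to 1.38). In Y-linked-only nuclei it went from 1598 CPM, from 39 UMIs in 5 nuclei, to 941, a ratio of 0.589 (0.405 to 0.872). The sets held 96 and 29 and 5 and 16 nuclei, and their difference was not tested. In Chat-positive nuclei Chrm2 stood at 1.40 (0.881 to 2.30) and Chrm3 at 0.887 (0.644 to 1.23), none of 2 past 1.5-fold against 12.2% of 872 genes. The makeup of these sets differed, since nuclei with 2 or more Chat UMIs were 2 of 20 naive and 8 of 28 injured, and those 8 held 44 of the 75 injured Chrm2 UMIs. In the 18 naive and 20 injured nuclei with exactly 1 Chat UMI, Chrm2 stood at 161 CPM (104 to 237) and 133 (90.6 to 189). Chrm3 stood there at 315 (233 to 417) and 357 (284 to 443). Both point the other way, but the intervals overlap, so no direction can be read.

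**Figure D4:**
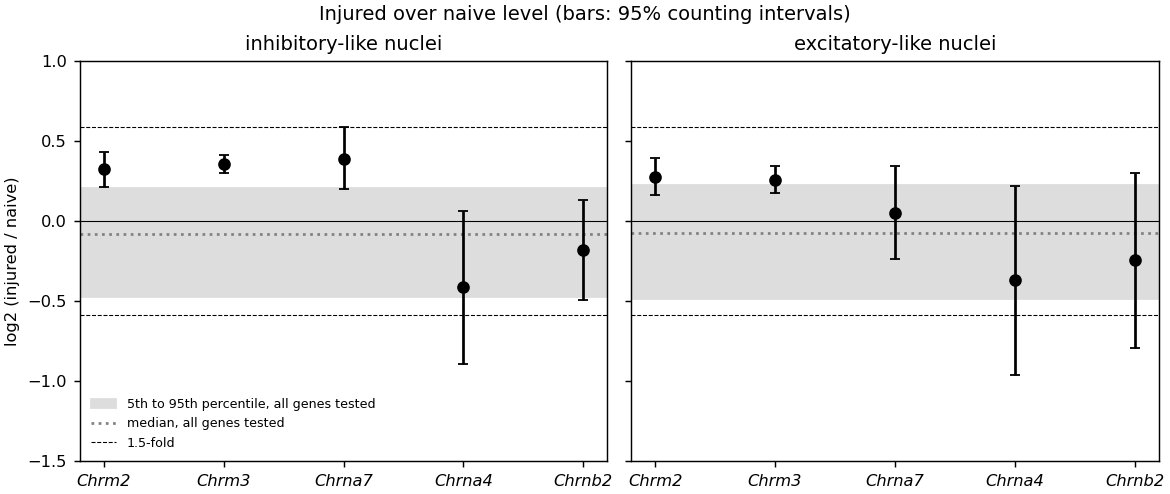
Log2 ratio of injured over naive level (vertical axis) of 5 genes in inhibitory-like (left) and excitatory-like (right) nuclei; points are ratios, bars 95% counting intervals, the grey band spans the 5th to 95th percentile of all genes tested, the dotted line is their median and dashed lines mark 1.5-fold. Chrm2 and Chrm3 lie above the grey band in both classes and Chrna7 in inhibitory-like nuclei, and all 5 genes lie inside the 1.5-fold lines.

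The makeup of the classes moved with the Chrm2 result. With clusters weighted evenly across the libraries, the log2 ratio of Chrm2 in inhibitory-like nuclei fell from 0.32 to 0.01, while that of Chrm3 was 0.35 and that of Chrna7 0.31. One subdivision of cluster 1, led by Foxp2, had the highest Chrm2 level of the class, 912 CPM naive and 782 injured, and made up 0.890% of naive and 1.88% of injured inhibitory-like nuclei. In excitatory-like nuclei the evenly weighted log2 ratios were 0.26 for Chrm2 and 0.27 for Chrm3. By cluster, Chrm3 was higher in the injured library in 22 of 26 clusters, and intervals were apart in 10, with 9 of these higher in the injured library. Cluster 0 (430 against 554 CPM), cluster 4 (264 against 401) and excitatory-like cluster 11 (304 against 510) were among them. Chrm2 was higher in 21 of 26, with intervals apart in 2, and Chrna7 in 11 of 26, with intervals apart in 1. Such counts were not made over all genes, so whether these numbers are unusual cannot be read.

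**Figure D5:**
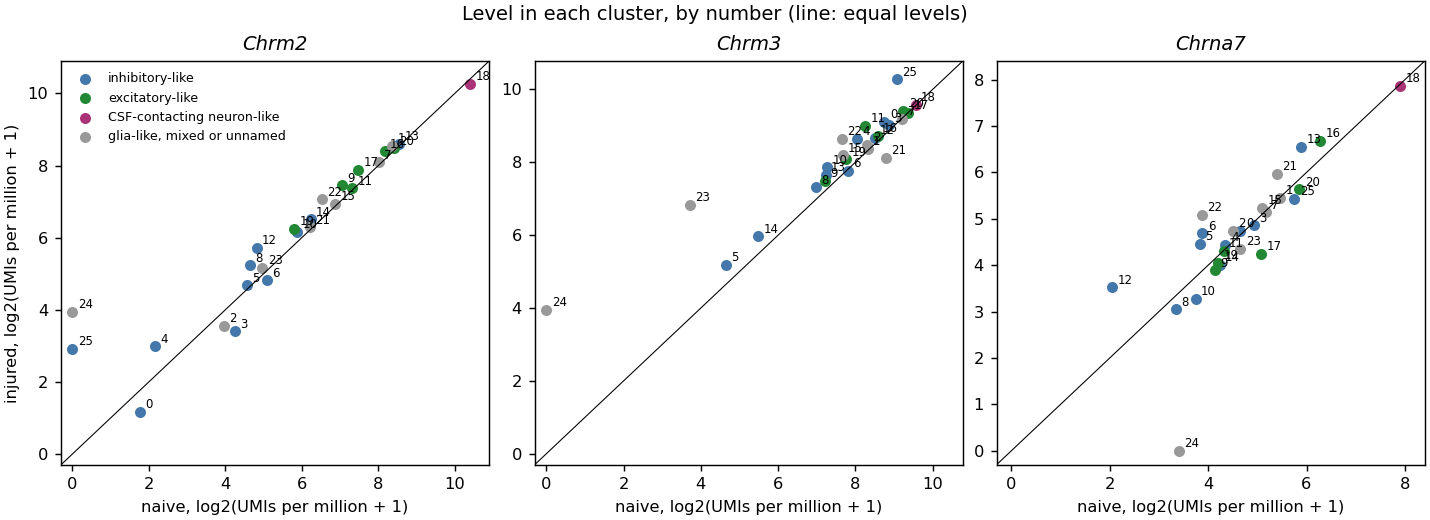
Level of Chrm2, Chrm3 and Chrna7 in each of 26 clusters, log2(CPM + 1), naive (horizontal axis) against injured (vertical axis), coloured by class and labelled with the cluster number; the line marks equal levels. Most points of Chrm3 lie above the line, with cluster 25 farthest among the neurons, and cluster 18 (CSF-contacting neuron-like) is at the top for Chrm2 and Chrna7.

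Gene length and sex genes also moved with these ratios. Chrm2, Chrm3 and Chrna7 span 140, 485 and 114 kb and lie in the longest of 5 equal-sized length groups of the genes tested. The median log2 ratio of that group was 0.04 in inhibitory-like and 0.05 in excitatory-like nuclei, against -0.24 and -0.21 in the shortest group. All 3 members were above the median of their own length group in inhibitory-like nuclei, and the part of length in the ratios was not tested. In Xist-only inhibitory-like nuclei the ratios were 1.26 for Chrm2, 1.18 for Chrm3 and 1.32 for Chrna7, and in Y-linked-only nuclei 1.31, 1.43 and 1.28. In excitatory-like nuclei Chrna7 went opposite ways, with 1.20 (0.940 to 1.53) in Xist-only and 0.559 (0.347 to 0.889) in Y-linked-only nuclei, the latter from 50 naive and 32 injured UMIs. That difference was not tested.

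Other genes of the cholinergic system were read from lists. Of the genes for acetylcholine synthesis, transport and breakdown, 3 were tested in inhibitory-like nuclei and 2 in excitatory-like nuclei, and none was past 1.5-fold between libraries. Ache stood at 34.4 CPM naive and 27.9 injured in inhibitory-like nuclei, a ratio of 0.813 (0.718 to 0.919), and at 0.768 (0.623 to 0.945) in excitatory-like nuclei. Of 9 further nicotinic subunit genes, none reached 100 UMIs in either class. Among assembly factors and lynx-family proteins, which chaperone or bind nicotinic receptors, none of 6 was past the fold in inhibitory-like nuclei and 1 of 6 was lower in excitatory-like nuclei, Lypd6 at 0.625 (0.417 to 0.926). Between classes, 2 of 7 of them were higher in excitatory-like nuclei in both libraries, against 7.35% of all genes compared. These were Lynx1 (1.57 and 1.63) and Lypd1 (2.83, 1.70 to 4.69, and 1.59, 0.886 to 2.79), the latter from 21 excitatory-like and 37 inhibitory-like UMIs in the injured library.

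Genes downstream of the muscarinic receptors were read in the same way, beside the shares of all genes past 1.5-fold given above, 2.47% and 2.81% between libraries and 13.4% between classes. Of 7 Gq-path and M-current genes, 1 was lower in the injured library in inhibitory-like nuclei, Gna11 at 0.614 (0.522 to 0.720), and none in excitatory-like nuclei. The list's median log2 ratio was 0.10 in both classes, above the -0.08 of all genes. Between classes, Kcnq5 was higher in excitatory-like nuclei (1.64 and 1.69), while Plcb1 (0.399 and 0.401) and Kcnq3 (0.647 and 0.618) were lower. Of 7 Gi-path and GIRK genes, none was past 1.5-fold between libraries in either class, and only Kcnj3 was lower in excitatory-like nuclei (0.324 and 0.349). Genes known from dorsal cholinergic interneurons, such as Nos1 and Pax2, were all 7 lower in excitatory-like nuclei. However, Gad1, Gad2, Slc32a1 and Slc6a5 had served to name the classes, and Pax2 was among the markers checked for the names. Between libraries 1 of 7 was lower in inhibitory-like nuclei, Lbx1 at 0.496 (0.352 to 0.695).

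Genes whose level across the 26 clusters was most like each member were sought among genes with at least 100 UMIs. For Chrm2 these were Abca7 (r 0.912), Larp1b (0.884) and Grid1 (0.864), and the same 3 led without the CSF-contacting cluster. For Chrm3 they were Impdh2 (0.804), Grtp1 (0.793) and Fbxo10 (0.791), for Chrna7 Ptcd2 (0.779), Kcns3 and Esd (both 0.765), and for Chrna4 Fermt1 (0.851), Stim2 (0.824) and Mkl2 (0.799). For Chrnb2 they were Rgs7bp (0.953), Unc13a (0.929) and Usp36 (0.922). For Chat, Slc5a7 was among the closest 3 (0.644), after Lncenc1 (0.687) and Fbln5 (0.656). Without the CSF-contacting cluster Slc5a7 (0.635) was no longer among them, and Lncenc1, Tfap2b and Esrrb led. For Chrna3 they were Qsox1 (0.745), Crabp1 (0.695) and Itga7 (0.694), and for Chrm1 Jarid2 (0.668), Sf1 (0.664) and Midn (0.653), while the 5 UMIs of Chrm4 carry no pattern. Without the CSF-contacting cluster all 3 changed for Chrm3 (N4bp2l1, Itgbl1, Tmem2), Chrna7 (Lemd1, Zdbf2, Ing2) and Chrm1 (Eftud1, Plekhm2, Rundc1). Mmaa, Sult4a1 and Sulf1 then entered for Chrna4, Chrnb2 and Chrna3. Between members, r was 0.549 for Chrm2 and Chrna7 (0.428 without the CSF-contacting cluster) and 0.582 for Chrm3 and Chrna7 (0.568 without it). It was 0.555 for Chrm3 and Chrnb2, and 0.127 for Chrna4 and Chrnb2. All clusters share the same 2 libraries, and glia-like clusters with low depth are among them.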

How the data were processed

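Single-nucleus UMI counts per gene and nucleus were deposited by the authors in 1 matrix. The authors also deposited natural log normalized values per library, whose columns gave the library of each nucleus. Per the submitters' processing notes, Cell Ranger 3.0.2, Seurat and the mm10 genome were used; the sources used here give no alignment or counting options. Nuclei were clustered with scanpy 1.11.5 (2000 variable genes, 30 components, 15 neighbours, Leiden resolution 1.0) without the cholinergic genes and named from marker genes. UMIs were summed per class and library and scaled to CPM. Ratios carry exact conditional binomial, levels exact Poisson and shares Clopper-Pearson 95% intervals (scipy 1.17.1). Genes with at least 100 UMIs over both libraries were compared, counted in the class between libraries and over both classes together between classes, and a change meant at least 1.5-fold; with 1 library per group no test was made. The ratio step was checked on simulated data. Scrublet marked 106 naive nuclei (2.61%) and 7 injured nuclei (0.197%), too few to have worked in the latter, so doublets were kept. All members were named. For each member the 3 genes of highest Pearson r of log2(CPM + 1) across clusters with at least 20 nuclei per library were named, leaving out predicted genes, and clusters the text describes are given with their 3 leading genes among those found in at least 25% of their nuclei; some leading genes are not reported here. The members and lists were chosen with earlier results of these data known.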

Additional observations from a re-analysis of the deposited data

How the results depend on the processing

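No paired analysis was possible because each group was 1 pooled library. With 5 members compared, the count past 1.5-fold between libraries in inhibitory-like nuclei was 0 and became 2 with no gene filter (Chrm1, Chrm4), 1 at 30 UMIs (Chrm1) and 4 at the lower fold limit of the alternatives (Chrm2, Chrm3, Chrna4, Chrna7). In excitatory-like nuclei it became 3 with no filter (Chat, Chrm1, Chrm4) and 1 at the lower limit (Chrna4). In Chat-positive nuclei it became 4 with no filter, 1 at the lower limit (Chrm2) and 1 with nuclei weighing the same. Between classes it fell from 2 to 1 at 2-fold, leaving Chrm2. The share of Chat-positive nuclei was 0.0492% naive and 0.226% injured at 2 or more UMIs, 0% and 0.0846% at 5 or more, and 0.100% and 0.114% thinned to 2000 UMIs; the injured share was 0.411% thinned to 4000.

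Counts over all genes depended on the limits. In inhibitory-like nuclei 311 genes became 3526 with no filter, 860 at 30 UMIs, 1899 at the lower fold limit, 22 at 2-fold and 480 in Y-linked-only nuclei. In excitatory-like nuclei 285 became 4795, 947, 1653 and 11 in that order, and 179 with size factors. In Chat-positive nuclei 106 became 8797, 828, 342 and 28, and 59 in Y-linked-only nuclei. Between classes 1788 became 3274 with no filter, 3073 at the lower limit and 988 at 2-fold. Single-gene ratios kept their sign in 116 of 121 alternatives between libraries, 68 of 75 between classes, 18 of 18 for CSF-contacting neuron-like nuclei and 23 of 23 for Chat-positive against other nuclei. With classes from each nucleus's own transmitter genes, Chrna7 between classes in the injured library went from a log2 ratio of 0.18 to -0.17, and Chrm3 between libraries in Chat-positive nuclei from -0.17 to 0.70. Weighting by cluster, single-sex nuclei and the use without cluster 25 were chosen after seeing the data; without it the log2 ratio of Chrm3 in inhibitory-like nuclei was 0.29. The causes of these shifts were not tested. With 1 library per group and few UMIs, Chat, Chrm1, Chrm4 and Chrna3 are limited by depth.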
